A study of Mus musculus with 16 samples.

Results

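The 10 genes examined here, Apoa1, Apoa2, Apoa4, Apoa5, Apob, Apoc3, Apoe, Apom, Mttp and Lcat, encode proteins that build, load or remodel plasma lipoproteins, and they were followed across mouse liver tumours and control livers. A probe set was taken when the array annotation gave it a single gene symbol and that symbol was one of the 10. This took 17 probe sets of the 34945 with 1 symbol, and 10 genes of 18193. All 10 genes were measured, 5 of them by more than 1 probe set. RNA of 16 liver samples had been hybridised to Affymetrix GeneChips, 1 array each. The groups were 7 Ctnnb1-mutated tumours and 3 non-tumour control livers from mice given phenobarbital, and 3 Ha-ras-mutated tumours and 3 non-tumour control livers from mice given plain drinking water. Ctnnb1 encodes β-catenin, the effector of canonical Wnt signalling, and Ha-ras is a GTPase upstream of the MAP kinase cascade. Phenobarbital is a sedative known to act through the nuclear receptor CAR and to promote liver tumours in mice.

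All mice were male C3H/HeJ. By the series text the animals, aged 2 or 6 weeks, had 1 injection of the liver carcinogen diethylnitrosamine at 10 or 90 µg per g, with no group set apart from it. A diet with 0.05% phenobarbital, or one free of it, started 2 weeks later and lasted 28 to 36 weeks. The sample labels instead give drinking water for 27 weeks, and their protocol text gives 28 days, so route and length of treatment are not settled. Which carcinogen dose and age applied to which sample is not in the labels, nor is whether the samples of a group came from separate animals. The p-values therefore measure the spread between these samples, which may be technical in part. Each mutation came with its own treatment, so each tumour type was set against controls of the same treatment.

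Apolipoproteins hold lipid in solution in plasma, and the liver makes most of them. Apob is the backbone of the large triglyceride-rich particles (VLDL), onto which Mttp, the microsomal triglyceride transfer protein, loads lipid in the endoplasmic reticulum. Apoa1 and Apoa2 are the main proteins of high-density lipoprotein (HDL), the smaller exchangeable apolipoproteins tune how fast triglyceride is cleared, and Lcat esterifies the cholesterol carried on HDL.

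The stretches upstream of Apom, Apoa4, Lcat and Apoa5 are shown first, since these are 4 of the 5 members that passed a test between tumours and their controls. They are the 250 bases before a start site in RefSeq's promoter table (build GRCm38.p6), written 5′ to 3′ on the gene's strand. Capitals mark a match to a searched motif.
Apom, chr17:35131802-35132051, minus strand: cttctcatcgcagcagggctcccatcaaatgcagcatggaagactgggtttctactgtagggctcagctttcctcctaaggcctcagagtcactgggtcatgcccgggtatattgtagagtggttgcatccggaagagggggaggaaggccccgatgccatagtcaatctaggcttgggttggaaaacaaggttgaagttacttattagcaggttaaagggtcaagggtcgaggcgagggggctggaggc
Apoa4, chr9:46240594-46240843, plus strand: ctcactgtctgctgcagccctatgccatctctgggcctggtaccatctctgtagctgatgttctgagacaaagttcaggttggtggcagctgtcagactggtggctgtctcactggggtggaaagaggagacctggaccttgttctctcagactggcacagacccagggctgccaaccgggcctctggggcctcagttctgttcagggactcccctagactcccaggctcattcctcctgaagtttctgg
Lcat, chr8:105943403-105943652, minus strand: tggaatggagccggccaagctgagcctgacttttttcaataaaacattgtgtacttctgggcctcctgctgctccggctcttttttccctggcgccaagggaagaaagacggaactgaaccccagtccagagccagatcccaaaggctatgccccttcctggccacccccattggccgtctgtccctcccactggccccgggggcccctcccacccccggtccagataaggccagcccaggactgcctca
Apoa5, chr9:46268358-46268607, plus strand: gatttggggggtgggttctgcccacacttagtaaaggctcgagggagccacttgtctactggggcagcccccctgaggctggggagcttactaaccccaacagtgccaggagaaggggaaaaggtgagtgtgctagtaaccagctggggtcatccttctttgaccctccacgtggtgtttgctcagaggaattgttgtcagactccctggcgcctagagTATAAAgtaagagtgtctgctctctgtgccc
The table held 13 windows for 9 of the 10 genes. The fifth gene that passed, Apoc3, is named only. Each window ran from 250 bases before to 50 after a start, 300 bases in all, and 4 motifs were searched on both strands. CAAAGTCCA and CAAAGGTCA, forms of the direct repeat that HNF4 can bind, matched none of the 13 windows, and 0.475% and 0.478% of the 32851 windows in the table. GTTAAT, part of the site that HNF1 binds, matched a window of Apoe and 7.1% of all windows. TATAAA, the TATA box, matched windows of Apoa5, Apob, Apoa2 and Apoe, and 13.6% of all windows. In the Apoa5 stretch above it begins at position -31 from the start site. The Apom, Apoa4 and Lcat windows hold none of the 4 motifs. These are matches of letters and not shown to be sites.

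Levels are log2 values after RMA (robust multi-array average), so a difference of 1 is 2-fold. The array medians lay between 5.03 and 5.10. The 3′ minus 5′ gap of the Gapdh control probe sets, which widens when RNA is degraded, was 2.70 in phenobarbital control 6 and between -0.15 and 0.32 in the other 15 arrays. The changes in Ctnnb1 tumours are also given without that array. The mean level of 8 hepatocyte markers was high in every array, at 13.50 to 13.95 in Ctnnb1 tumours, 13.73 to 14.24 in phenobarbital controls, 13.86 to 14.05 in Ha-ras tumours and 14.00 to 14.16 in untreated controls. Ctnnb1 RNA, which does not check for a mutation within the gene, ranged from 12.20 to 12.54 in the Ctnnb1 tumours and from 12.77 to 12.99 in the Ha-ras tumours. Its range was 12.28 to 12.53 in phenobarbital controls and 12.25 to 12.36 in untreated controls. Hras is not analysed here.

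In Ha-ras tumours against untreated controls, Apoa4 and Apom rose and Lcat fell, whereas in Ctnnb1 tumours against phenobarbital controls Apoa5 and Apoc3 fell. No member passed the test in both. Apoa4 was 3.24-fold and Apom 2.85-fold higher in Ha-ras tumours, and Lcat 1.68-fold lower. In Ctnnb1 tumours Apoa5 was 2.23-fold and Apoc3 1.34-fold lower. A gene was called where limma's moderated test, adjusted by Benjamini-Hochberg across the 18193 genes, gave p under 0.05. In Ha-ras tumours 2 of 10 members rose, against 7.21% of all genes, and 1 fell, against 6.33%. In Ctnnb1 tumours 0 of 10 rose, against 6.07%, and 2 fell, against 5.97%. At an unadjusted p under 0.05 the counts were 4 of 10 in Ha-ras tumours, against 25.9% of all genes, and 5 of 10 in Ctnnb1 tumours, against 27%. The median log2 change over the members was 0.10 in Ha-ras tumours (all genes -0.04) and 0.03 in Ctnnb1 tumours (all genes -0.03). Over all genes, the 2192 calls in Ctnnb1 tumours were 1337 without phenobarbital control 6.

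In 8 of 10 members every Ha-ras tumour lay above, or every one below, all the untreated controls, which held for 34.8% of all genes with 3 arrays on each side. In Ctnnb1 tumours this was so for 3 of 10, namely Apoa5, Apoc3 and Apom, against 12.6% of all genes. In bulk tissue fewer cells of a type and less RNA per cell cannot be told apart.

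Without phenobarbital control 6, Apoa5 at -1.15 (adjusted p = 0.0246, limma) and Apoc3 at -0.36 (adjusted p = 0.0343) passed in Ctnnb1 tumours, and no other member did. The main probe sets of the others then changed by 0.58 for Apoa4, -0.34 for Apom, 0.26 for Mttp, 0.07 for Apoa1, -0.03 for Apoa2 and -0.26 for Lcat. Apob and Apoe, neither of them called, read -0.02 and -0.04 without the array and 0.10 and 0.06 with it.

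**Figure D1:**
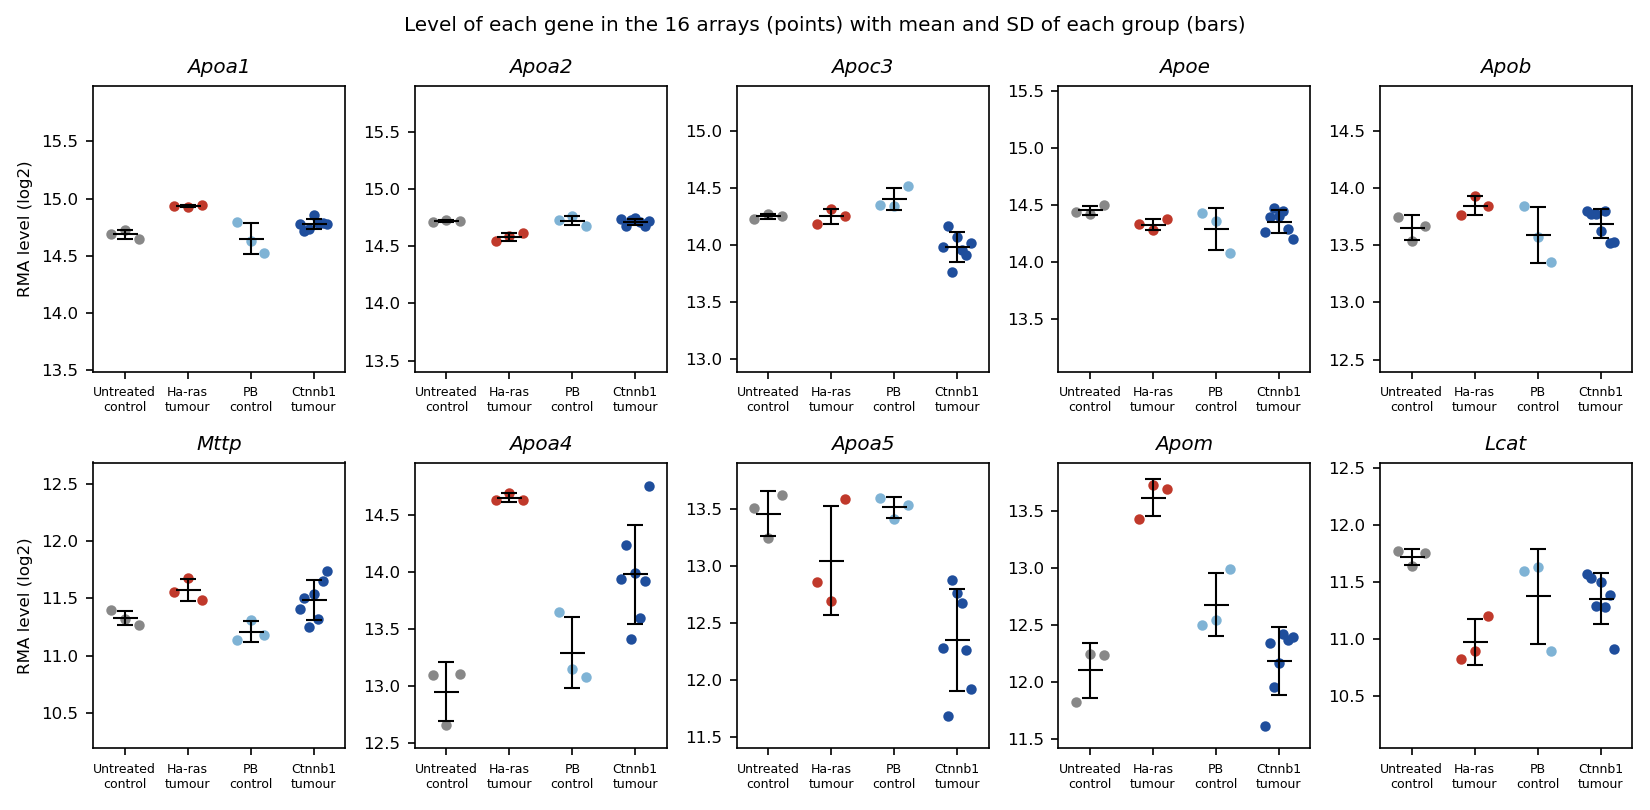
RMA level (log2, y axis) of the 10 genes in each of the 16 arrays (points) by group (x axis; PB stands for phenobarbital), with the group mean and SD as bars; every panel spans 2.5 log2 units. Apom and Apoa4 have their highest mean in the 3 Ha-ras tumours (13.61 and 14.65), although the highest single Apoa4 array is Ctnnb1 tumour 7 (14.75), and Apoa5 and Apoc3 have their lowest mean in the 7 Ctnnb1 tumours (12.35 and 13.98).

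The HDL proteins Apoa1 and Apoa2 did not pass the test in either tumour type. Apoa1, which takes up cholesterol from cells and activates Lcat, was 14.94, 14.93 and 14.94 in the 3 Ha-ras tumours and 14.69, 14.72 and 14.65 in untreated controls. All Ha-ras tumours lay above all controls, but the log2 change of 0.25 ± 0.09 (SE) did not pass (adjusted p = 0.0749, limma). In the fit over all 34945 probe sets, where 10.5% were called in Ha-ras tumours, another Apoa1 probe set passed at 0.28 ± 0.08 (adjusted p = 0.0439). The remaining Apoa1 probe sets gave 0.27 and 0.21 (adjusted p 0.0528 and 0.132). The per-gene test of Apoa1 passed without phenobarbital control 6 (adjusted p = 0.0413), an array that enters this comparison through the shared estimate of spread alone. In Ctnnb1 tumours Apoa1 ranged from 14.71 to 14.86 with a median of 14.78, and overlapped its controls at 14.79, 14.63 and 14.52.

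Apoa2, the other main HDL protein, read 14.54, 14.59 and 14.61 in Ha-ras tumours and 14.71, 14.73 and 14.72 in untreated controls. Every Ha-ras tumour was below every control, and the change of -0.14 ± 0.08 did not pass (adjusted p = 0.282, limma). In Ctnnb1 tumours it lay between 14.68 and 14.75, with controls at 14.73, 14.76 and 14.68, and the 95% interval of the difference ran from -0.15 to 0.13. Both genes read near the top of the scale. Apoa1 was within 0.08 to 0.37 and Apoa2 within 0.18 to 0.50 log2 units of the highest probe set with 1 symbol on its array. Array signals can be compressed there. Whether their probes were saturated was not tested.

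Lcat, the plasma enzyme that esterifies HDL cholesterol, was 10.82, 10.90 and 11.20 in Ha-ras tumours and 11.77, 11.64 and 11.76 in untreated controls. It fell by 0.75 ± 0.19 on the log2 scale (adjusted p = 0.0159, limma), with no overlap. The call was lost on omission of untreated control 1 (-0.72, adjusted p = 0.0554), untreated control 3 (-0.73, 0.0528), Ha-ras tumour 1 (-0.67, 0.0701) or Ha-ras tumour 2 (-0.71, 0.0580). In Ctnnb1 tumours Lcat ranged from 10.92 to 11.57 with a median of 11.39, against 11.60, 11.63 and 10.90. The low control is phenobarbital control 6, the array with the wide Gapdh gap, and the 95% interval of the difference ran from -0.36 to 0.33. The interaction, meaning the Ctnnb1 change minus the Ha-ras change, was 0.73 ± 0.25 for Lcat (adjusted p = 0.116) and passed without Ctnnb1 tumour 7 (0.80, adjusted p = 0.0468).

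Apom gave the largest difference between the tumour types. Apom is a small lipocalin held on HDL that carries sphingosine 1-phosphate. It stood at 13.43, 13.72 and 13.69 in Ha-ras tumours and at 11.83, 12.24 and 12.24 in untreated controls. All 3 Ha-ras tumours lay above every other array, and the change was 1.51 ± 0.20 (adjusted p = 0.000121, limma). In Ctnnb1 tumours 1 to 7 it read 11.62, 12.35, 11.96, 12.17, 12.43, 12.37 and 12.40, all below the phenobarbital controls at 12.50, 12.54 and 12.99. That change of -0.49 ± 0.17 did not pass (adjusted p = 0.0742). The interaction was -2.00 ± 0.27 (adjusted p = 0.000296), a 4.01-fold difference between the changes.

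The second Apom probe set gave 1.51 ± 0.22 in Ha-ras tumours (adjusted p = 0.000244) and an interaction of -1.72 ± 0.28 (adjusted p = 0.00198). In Ctnnb1 tumours it differed by -0.21 ± 0.18 (adjusted p = 0.517) and overlapped its controls, so the gap between Ctnnb1 tumours and controls was seen in the main probe set alone. In Ha-ras tumours the Apom call held in all 31 alternative settings, with changes from 1.37 to 1.60. On chromosome 17 the protein-coding neighbours of Apom are D17H6S53E and Bag6.

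Apob and Mttp, the pair that starts a VLDL particle, were not called in either tumour type. Apob read 13.77, 13.93 and 13.84 in Ha-ras tumours and 13.75, 13.53 and 13.67 in untreated controls. The groups did not overlap, and the change of 0.19 ± 0.13 did not pass (adjusted p = 0.380, limma). In Ctnnb1 tumours Apob ranged from 13.52 to 13.80 with a median of 13.77, inside the span of the phenobarbital controls at 13.84, 13.58 and 13.35. A second Apob probe set varied between 7.31 and 9.53 over the Ctnnb1 tumours, and its change of 0.58 ± 0.37 there did not pass (adjusted p = 0.353).

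Mttp was 11.56, 11.68 and 11.49 in Ha-ras tumours and 11.40, 11.32 and 11.27 in untreated controls. The groups did not overlap, and the change of 0.25 ± 0.12 did not pass (adjusted p = 0.221, limma). In Ctnnb1 tumours Mttp ranged from 11.25 to 11.74 with a median of 11.50, against 11.13, 11.31 and 11.18, a change of 0.28 ± 0.10 (adjusted p = 0.0947). Its second probe set gave 0.28 in Ha-ras and 0.47 in Ctnnb1 tumours (adjusted p 0.426 and 0.0728). In the phenobarbital controls this probe set was lowest in control 6, and without it the Ctnnb1 change was 0.21 (adjusted p = 0.433). The interaction for Mttp was 0.03 with a 95% interval from -0.31 to 0.37.

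Apoa4 had the largest rise among the members. This apolipoprotein, best known from the intestine and made by mouse liver too, travels on triglyceride-rich particles and HDL. Its levels were 14.63, 14.69 and 14.63 in Ha-ras tumours and 13.10, 12.66 and 13.10 in untreated controls. All Ha-ras tumours lay above every control, with a log2 change of 1.70 ± 0.26 (adjusted p = 0.000365, limma). In Ha-ras tumours this probe set read within 0.34 to 0.41 log2 units of the array's highest value, where signals can be compressed. The other probe set, 0.48 to 0.59 units from the highest value, gave 2.18 ± 0.37 (adjusted p = 0.000956). In Ha-ras tumours the Apoa4 call held in all 31 alternative settings, with changes from 1.55 to 2.18.

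In Ctnnb1 tumours Apoa4 was scattered, at 13.94, 14.23, 13.41, 13.99, 13.60, 13.92 and 14.75 for tumours 1 to 7, against 13.65, 13.15 and 13.08. Tumours 3 and 5 lay within the range of the controls and the other 5 above it. The change of 0.69 ± 0.22 fell just short of the threshold (adjusted p = 0.0534, limma). The second probe set, at 1.14 ± 0.31, passed in the fit over all probe sets (adjusted p = 0.0297), where 10.1% were called in Ctnnb1 tumours, and did not pass without phenobarbital control 6 (0.86, adjusted p = 0.173), which was tried after seeing the data. The main probe set passed without Ctnnb1 tumour 3 (0.78, adjusted p = 0.0249), without tumour 5 (0.75, 0.0400) or without phenobarbital control 4 (0.86, 0.0412). It also passed with dim genes left out (adjusted p = 0.0397) and with median centring (0.70, adjusted p = 0.0475), as did the mean of both probe sets (0.91, adjusted p = 0.0371). The interaction was -1.01 ± 0.34 (adjusted p = 0.107) and passed without Ctnnb1 tumour 7 (-1.14, adjusted p = 0.0176).

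Since Apoa4 is also an intestinal gene, enterocyte markers were read beside it. The mean level of the 7 measured markers of 8 was 6.36 to 7.15 in Ha-ras tumours and 5.58 to 5.67 in untreated controls. It was 5.91 to 6.40 in Ctnnb1 tumours and 5.36 to 5.72 in phenobarbital controls. In each tumour type 2 of the 7 rose, against 7.21% of all genes in Ha-ras and 6.07% in Ctnnb1 tumours. Not every marker given below with a higher mean was therefore called. The brush-border enzyme Lct stood at 2.90 to 3.29 in all arrays, below every array's median, and intestinal alkaline phosphatase Alpi at 4.68 to 5.27. Cdh17, an intestinal cadherin, had a mean of 7.08 in Ha-ras tumours and 3.74 in their controls, and 4.44 in Ctnnb1 tumours against 3.57. Means of Vil1 and Anpep were 6.83 and 7.24 in Ha-ras tumours against 4.93 and 6.34. In Ctnnb1 tumours they were 7.12 and 7.06 against 5.27 and 6.46, and that of Fabp2 was 11.51 against 10.45. In Ha-ras tumours Fabp2 ranged from 11.93 to 12.07, with controls up to 11.54. Each of these overlapped its controls in Ctnnb1 tumours, as did Vil1 in Ha-ras tumours. Rbp2 means in Ha-ras and Ctnnb1 tumours were 5.24 and 4.94, against 5.18 and 4.898. The part of these markers in the Apoa4 result was not tested.

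**Figure D2:**
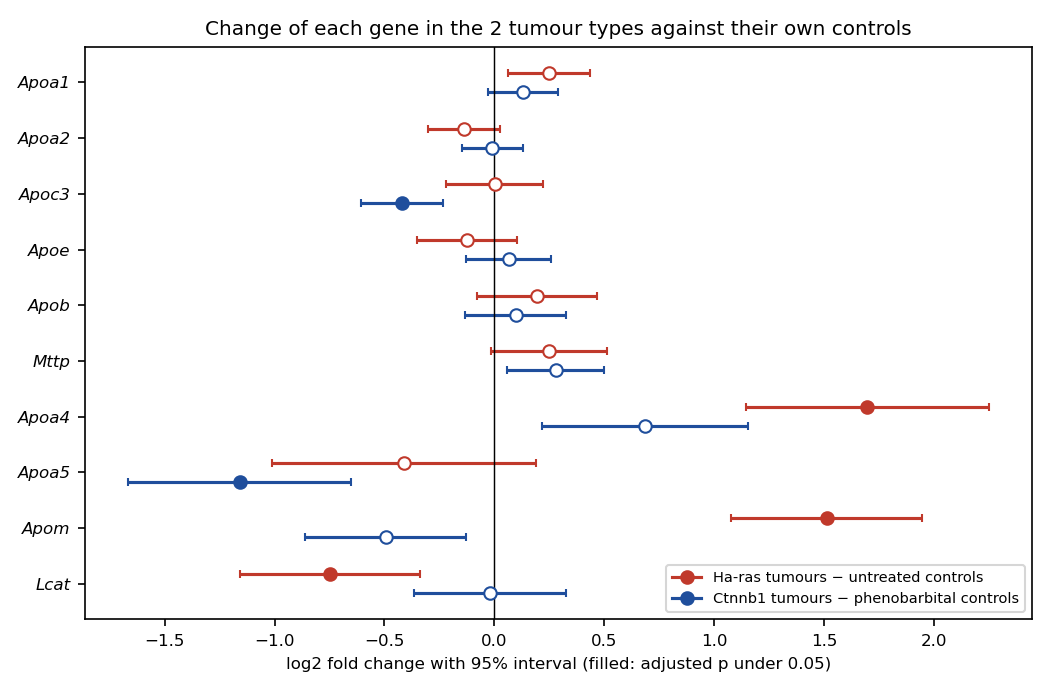
Log2 fold change (x axis) of each gene (y axis) in Ctnnb1 tumours minus phenobarbital (PB) controls and in Ha-ras tumours minus untreated controls, with 95% intervals; filled points passed an adjusted p under 0.05. Apom lies at 1.51 in Ha-ras and at -0.49 in Ctnnb1 tumours, and Apoa4 to the right of 0 in both (1.70 and 0.69).

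Apoa5 and Apoc3, which have opposite roles in triglyceride clearance, were the members that fell in Ctnnb1 tumours. Apoa5 is a scarce plasma protein that speeds clearance by lipoprotein lipase, and Apoc3 slows it. Apoa5 stood at 12.28, 11.69, 12.88, 12.77, 12.68, 12.26 and 11.92 in Ctnnb1 tumours 1 to 7 and at 13.59, 13.41 and 13.53 in phenobarbital controls. Every tumour was below every control, by a log2 change of -1.16 ± 0.24 (adjusted p = 0.00541, limma). With the Gapdh gap as a covariate, chosen after seeing the data, the change was -1.09 (adjusted p = 0.0643).

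In Ha-ras tumours 1 to 3 Apoa5 was 12.86, 12.69 and 13.58, against 13.51, 13.24 and 13.62 in untreated controls. Tumours 1 and 2 lay below the controls and tumour 3 among them, and the change of -0.41 ± 0.28 did not pass (adjusted p = 0.400, limma). The interaction was -0.75 ± 0.37 (adjusted p = 0.300), so the fall was not shown to be larger in Ctnnb1 tumours.

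Apoc3 read 13.99, 14.17, 13.76, 14.07, 13.96, 13.92 and 14.02 in Ctnnb1 tumours 1 to 7 and 14.35, 14.34 and 14.52 in phenobarbital controls. All 7 tumours lay below all 3 controls, by -0.42 ± 0.09 (adjusted p = 0.00631, limma). The call was lost when 3 arrays, phenobarbital control 6 with Ctnnb1 tumours 6 and 7, were jointly omitted (-0.36, adjusted p = 0.0607) and with the Gapdh covariate (-0.34, adjusted p = 0.0862), both chosen after seeing the data. It was also lost with the replicate number as a fixed block (-0.42, adjusted p = 0.0965). That fit rests on Ctnnb1 tumours 4, 5 and 6, which share a number with a control. In Ha-ras tumours Apoc3 was 14.19, 14.32 and 14.25 against 14.23, 14.27 and 14.25, groups that overlapped, with a 95% interval of the change from -0.22 to 0.22. The interaction of -0.42 ± 0.14 did not pass (adjusted p = 0.0941).

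Apoa1, Apoc3, Apoa4 and Apoa5 follow one another in that order among the protein-coding genes of chromosome 9 (RefSeq, GRCm38.p6). In Ctnnb1 tumours the log2 changes in that order were 0.13, -0.42, 0.69 and -1.16, and in Ha-ras tumours 0.25, 0.00, 1.70 and -0.41. Apoc3 and Apoa5 were the called genes of the row in the first, and Apoa4 in the second.

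**Figure D3:**
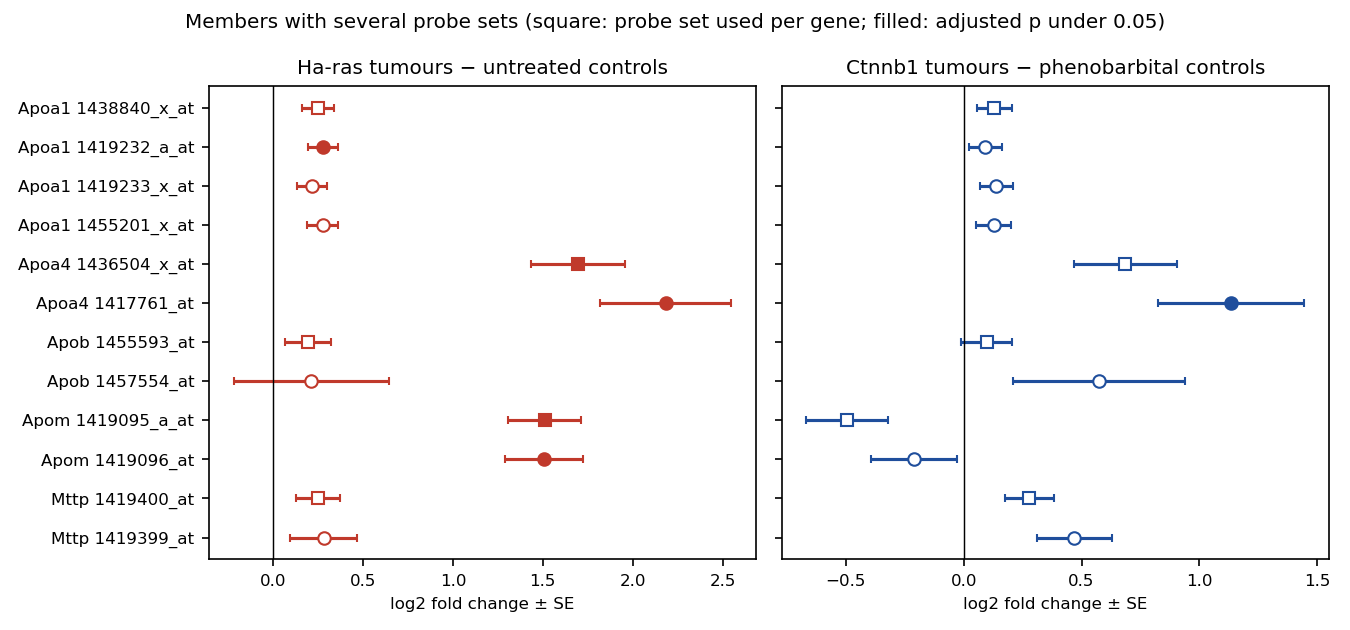
Log2 fold change ± SE (x axis) of each probe set of the 5 members with several (y axis), in Ha-ras tumours (left) and Ctnnb1 tumours (right) against their controls; squares mark the probe set used per gene. Both Apom probe sets lie at 1.51 in Ha-ras tumours, and both Apoa4 probe sets lie right of 0 in each tumour type (1.70 and 2.18, 0.69 and 1.14).

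Apoe, which returns remnant particles to hepatocyte receptors, did not pass in any comparison. It read 14.33, 14.28 and 14.38 in Ha-ras tumours and 14.44, 14.42 and 14.50 in untreated controls. The tumours lay just below the controls, and the change of -0.12 ± 0.11 did not pass (adjusted p = 0.525, limma). Ctnnb1 tumours ranged from 14.20 to 14.48 with a median of 14.40, and overlapped controls at 14.43, 14.36 and 14.08, where the low value is phenobarbital control 6. Macrophages express Apoe as well. The mean of 10 macrophage and Kupffer cell markers was 6.77 to 9.08 in Ha-ras tumours against 8.64 to 9.50 in their controls, with 4 of 10 fallen. It was 8.08 to 8.95 in Ctnnb1 tumours against 8.61 to 9.39, with 1 fallen. Of all genes 6.33% fell in Ha-ras and 5.97% in Ctnnb1 tumours. Their part in the Apoe levels was not tested.

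Among the members the interaction called Apom, 1 of 10, where 5.43% of all genes were called, and 4 of 10 had an unadjusted p under 0.05, against 18.3% of all genes. Over all genes the 988 interaction calls were 648 without untreated control 1. Between the tumour types, where mutation and phenobarbital change together, 0 of 10 members were higher in Ctnnb1 tumours (7.21% of all genes) and 1 was lower (7.9%). That was Apom at -1.43 ± 0.17 (adjusted p = 2.76e-05, limma). Apoa4 at -0.67 and Apoc3 at -0.27 (both adjusted p = 0.0516) and Apoa5 at -0.69 (adjusted p = 0.0638) did not pass. Arrays of the tumour types did not overlap for 4 of 10 members, Apoa1, Apoa2, Apoc3 and Apom, against 16.2% of all genes. Over all genes the 2750 calls between the tumour types were 1745 without Ha-ras tumour 1.

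Members not called between the tumour types passed there when 1 array was left out. Without Ctnnb1 tumour 7, Apoa4 (-0.80, adjusted p = 0.00465, limma) and Lcat (0.45, adjusted p = 0.0496) passed. Without phenobarbital control 6, Apoa4 (adjusted p = 0.0490) and Apoc3 (adjusted p = 0.0357) passed, and without phenobarbital control 4, Apoa4 (adjusted p = 0.0475). Apoc3 passed without Ctnnb1 tumour 2 (-0.30, adjusted p = 0.0289), and Apoa5 without tumour 3 (-0.78, adjusted p = 0.0342) or tumour 4 (-0.76, adjusted p = 0.0486).

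Between phenobarbital and untreated control livers, limma called 0 of 10 members, and 0.214% of all genes. The count of all genes ranged from 3 without phenobarbital control 4 to 68 without phenobarbital control 5. Apom was the 1 of 10 with an unadjusted p under 0.05, against 13.6% of all genes, at 0.58 ± 0.20 (adjusted p = 0.242). All its phenobarbital controls lay above its untreated controls, as did those of Apoc3, while those of Lcat lay below, 3 of 10 without overlap against 18.8% of all genes. The second Apom probe set differed by 0.09 between the control groups (adjusted p = 0.896). The same phenobarbital controls enter the Ctnnb1 comparison, so the higher Apom in those controls and the lower Apom in Ctnnb1 tumours rest on 3 shared arrays.

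By group means, Apom ran from untreated control (12.10 ± 0.24, SD, n = 3) over Ctnnb1 tumour (12.18 ± 0.30, n = 7) and phenobarbital control (12.68 ± 0.27, n = 3) to Ha-ras tumour (13.61 ± 0.16, n = 3). The lowest pair overlapped, and the later steps did not. Apoa4 ran from untreated control (12.95 ± 0.25) over phenobarbital control (13.29 ± 0.31) and Ctnnb1 tumour (13.98 ± 0.44) to Ha-ras tumour (14.65 ± 0.04), and each step overlapped. Apoa5 ran from Ctnnb1 tumour (12.35 ± 0.45) over Ha-ras tumour (13.05 ± 0.47) and untreated control (13.46 ± 0.19) to phenobarbital control (13.51 ± 0.09), again with overlap at each step. Apoc3 was lowest in Ctnnb1 tumour (13.98 ± 0.13), overlapped between untreated control (14.25 ± 0.02) and Ha-ras tumour (14.25 ± 0.07), and was highest in phenobarbital control (14.40 ± 0.10). Lcat was lowest in Ha-ras tumour (10.97 ± 0.20), followed with overlap by Ctnnb1 tumour (11.35 ± 0.22) and phenobarbital control (11.37 ± 0.41), and highest in untreated control (11.72 ± 0.07).

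The 7 Ctnnb1 tumours differed among themselves mostly in Apoa5 and Apoa4. Their SDs of 0.45 and 0.44 lay at the 92.7th and 92.2nd percentile of all genes, whose median SD was 0.18. Apom followed at 0.30, whereas Apoa1 and Apoa2 had SDs of 0.04 and 0.03. Tumours 7 and 2 held the highest Apoa4 (14.75 and 14.23) and the lowest Apoa5 (11.92 and 11.69), and tumour 3 the lowest Apoa4 (13.41) and the highest Apoa5 (12.88). Mttp was also highest in tumour 7 (11.74) and lowest in tumour 3 (11.25), and Lcat was lowest in tumour 7 (10.92). These pairings were picked after their values were seen and describe 7 arrays.

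**Figure D4:**
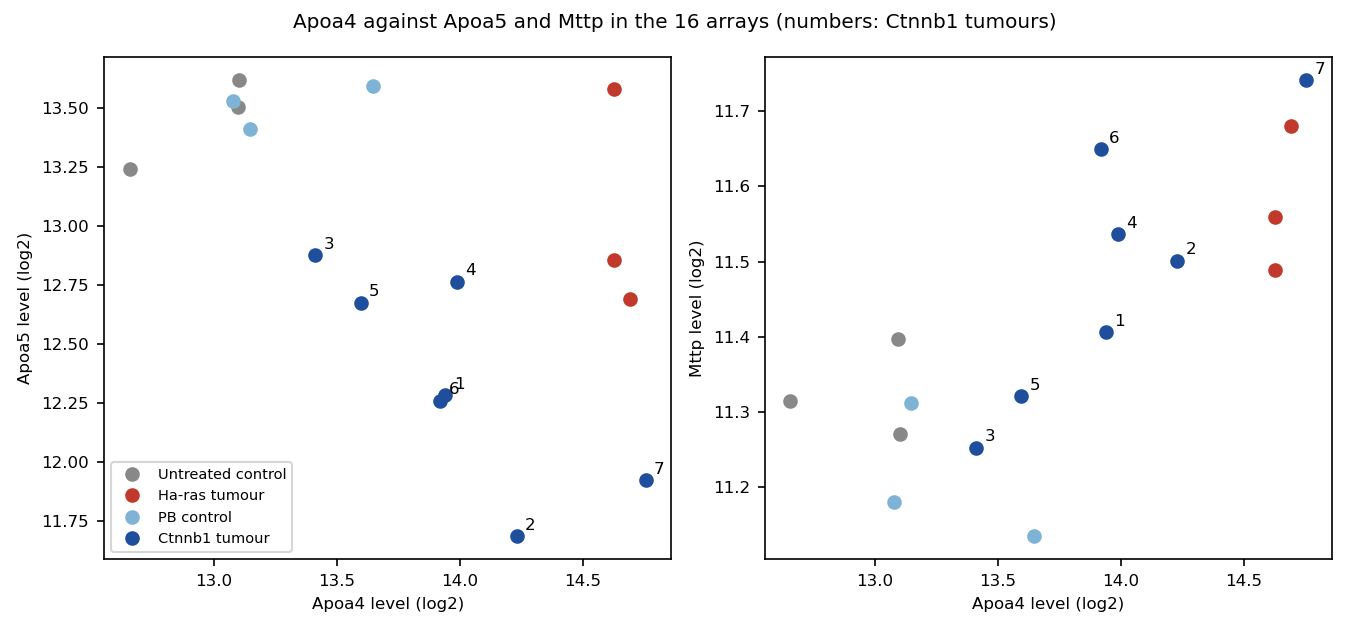
Apoa4 level (log2, x axes) against Apoa5 (left) and Mttp (right) level (log2, y axes) in the 16 arrays, coloured by group, with the Ctnnb1 tumours numbered. Ctnnb1 tumour 7 has the highest Apoa4 (14.75) and Mttp (11.74) of its group with low Apoa5 (11.92), and tumour 3 the lowest Apoa4 (13.41) and Mttp (11.25).

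For each member the 3 other genes whose log2 levels followed it most closely over the 16 arrays were found, as a description into which the group differences enter. Apom was followed by Fam81a (Pearson r = 0.917), Macir and Abhd2 (both 0.912), which rose in Ha-ras tumours (Macir by 1.91 and Abhd2 by 1.32) and were not called in Ctnnb1 tumours. Apoa4 was followed by Ano10 (0.935), Wdr1 (0.935) and Ptgr1 (0.933), and Apoa5 by Deptor (0.916), Whamm (0.908) and Sash1 (0.903). Apoc3 was followed by Slc13a2 (0.925), Odf3b (0.914) and Msi2 (0.912), which fell in Ctnnb1 tumours, with changes of -1.26, -0.96 and -1.07 beside -0.42 for Apoc3. Lcat was closest to Hibadh (0.918), Bphl (0.914) and Aldh7a1 (0.913), and Apoa1 to Bcl10 (0.937), Abhd5 (0.936) and Tgif1 (0.934). Apoa2 was closest to Acsm1 (0.948), 9130409I23Rik (0.939) and Pon1 (0.934), which fell in Ha-ras tumours, with changes of -2.06, -3.63 and -2.75. The best matches of Apob (Alkbh6, 0.851), Mttp (Cibar1, 0.875) and Apoe (Tmem216, 0.880) were lower.

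Around these genes, 106 of 116 listed partners in lipoprotein metabolism were measured. In Ha-ras tumours 10 of 106 rose and 9 fell, against 7.21% and 6.33% of all genes. In Ctnnb1 tumours 7 rose and 9 fell, against 6.07% and 5.97%. The median log2 change was -0.02 in each tumour type. The same shares of all genes apply to each list below. Between the control groups limma called 0 of 106. In Ctnnb1 tumours 0 of the 16 calls, and in Ha-ras tumours 6 of 19, held in every alternative, which include an adjusted p under 0.01 and a 2-fold minimum.

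Of 15 other apolipoproteins, 1 rose and 4 fell in Ha-ras tumours, with a median of -0.31. Apoc2, the cofactor that switches on lipoprotein lipase, rose from 12.47 ± 0.03 (SD, n = 3) to 13.94 ± 0.08 (SD, n = 3), by 1.47 ± 0.16 (adjusted p = 1.80e-05, limma). In Ctnnb1 tumours it differed by -0.09 ± 0.14, and the interaction of -1.56 ± 0.21 passed (adjusted p = 0.000318). Apoc4, its neighbour in the row Apoc2, Apoc4, Apoc1, Apoe on chromosome 7, fell in Ha-ras tumours, at -0.78 ± 0.15 (adjusted p = 0.00236). Apoc1, named for its place in that row, differed by -0.09 (adjusted p = 0.695), and Apoe, as above, by -0.12. Apol7a fell by 0.99 and was not called once untreated control 1 was omitted (adjusted p = 0.0516), nor without Ha-ras tumour 2 (0.0524). Saa4, an HDL-bound serum amyloid, was at -1.05 (adjusted p = 0.0375) and not called without untreated control 1 or 3 or any Ha-ras tumour (adjusted p 0.0655 to 0.129).

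In Ctnnb1 tumours 1 of the 15 rose and 0 fell, with a median of -0.09. It was Apool, a mitochondrial protein despite its name, at 0.68 ± 0.18 (adjusted p = 0.0202, limma). Without phenobarbital control 6 it was 0.35 (adjusted p = 0.109), and its other probe sets read -0.10 and 0.15.

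Of 28 genes of particle assembly and secretion, 4 rose and 1 fell in Ctnnb1 tumours, with a median of 0.23, and 0 rose and 1 fell in Ha-ras tumours, with a median of 0.17. Sort1, the sorting receptor sortilin that binds Apob, rose in Ctnnb1 tumours by 0.96 ± 0.19 (adjusted p = 0.00419, limma), while its other probe sets gave 0.78 (adjusted p = 0.0173) and -0.18 (adjusted p = 0.423). Sec24d, a cargo adaptor of COPII vesicles, rose by 0.86 ± 0.19, and read 0.59 without phenobarbital control 6 (adjusted p = 0.0586). Vmp1, a scramblase of the endoplasmic reticulum, rose by 0.59 ± 0.13 (adjusted p = 0.00958), and read 0.26 with the Gapdh covariate (adjusted p = 0.187). Mia2, a cargo receptor at exit sites, rose by 0.57, and was not called without Ctnnb1 tumour 3, 4, 6 or 7 or any phenobarbital control (adjusted p 0.0509 to 0.163). The motor Kif13b was at -0.33 (adjusted p = 0.0449) and lost the call in 23 of 31 alternatives, with -0.24 without phenobarbital control 6 (adjusted p = 0.227). Cideb, which helps lipid onto VLDL, fell in Ha-ras tumours, at -0.48 ± 0.13 (adjusted p = 0.0198), but not past the threshold once untreated control 1 (adjusted p = 0.0813), untreated control 2 (0.0518) or Ha-ras tumour 1 (0.0782) was omitted.

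Of 21 listed genes of lipases and plasma remodelling 17 were measured, and 6 rose and 1 fell in Ha-ras tumours, with a median of 0.23. In Ctnnb1 tumours 1 rose and 1 fell, with a median of 0.18. Lpl, the lipase that peripheral tissues use to take up fatty acids, rose in Ha-ras tumours by 1.86 ± 0.39 (adjusted p = 0.00382, limma) and in Ctnnb1 tumours by 1.33 ± 0.33 (adjusted p = 0.0155). The second call did not survive the omission of phenobarbital control 4 (1.27, adjusted p = 0.0537) or 5 (1.08, adjusted p = 0.0711), while another Lpl probe set passed there at 2.00 (adjusted p = 0.000985). Angptl8, which acts with its relatives to inhibit lipoprotein lipase, rose in Ha-ras tumours by 2.39 ± 0.34 (adjusted p = 0.000178). Pon1, the HDL-bound paraoxonase, fell there, at -2.75 ± 0.34 (adjusted p = 5.31e-05), from 13.67 ± 0.03 (SD, n = 3) to 10.92 ± 0.83 (SD, n = 3). In Ctnnb1 tumours Angptl8 and Pon1 differed by 0.14 and 0.41, and their interactions of -2.25 and 3.16 passed. Abcg5, a sterol exporter, was 1.03 higher in Ha-ras tumours (adjusted p = 0.0423), lost the call in 10 of 31 alternatives, and read 0.77 without untreated control 2 (adjusted p = 0.183). Lmf1, the lipase maturation factor, fell in Ctnnb1 tumours, at -0.64 ± 0.12 (adjusted p = 0.00316), with its other probe set at 0.04.

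Of 21 listed lipoprotein receptors and their regulators 18 were measured, and 0 rose and 5 fell in Ctnnb1 tumours, with a median of -0.06. Sdc1, a heparan sulphate proteoglycan that takes up remnants, fell by 0.93 ± 0.17 (adjusted p = 0.00289, limma), and its interaction of -1.09 passed (adjusted p = 0.0243). Its other probe sets gave -0.98, -1.07 and -0.16 in Ctnnb1 tumours (adjusted p 0.00305, 0.00196 and 0.777). Mylip, a ligase that marks the LDL receptor for breakdown, fell by 0.90 ± 0.25, and missed the threshold once phenobarbital control 4 (adjusted p = 0.0947) or 5 (0.104) was omitted. Stab1, a scavenger receptor of sinusoidal endothelium, fell by 0.84 ± 0.20, and was not called without phenobarbital control 6 (-0.64, adjusted p = 0.0911). Lrp6, a Wnt co-receptor of the LDL receptor family, fell by 0.78 ± 0.12 (adjusted p = 0.000869), with its other probe set at -0.30 (adjusted p = 0.283).

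In Ha-ras tumours 1 of these receptors rose and 1 fell, with a median of -0.11. Lsr, the lipolysis-stimulated receptor, rose by 0.66 ± 0.14 (adjusted p = 0.00555, limma), with its other probe set at -0.17. Lrp1, a remnant receptor, fell by 0.77 ± 0.20 (adjusted p = 0.0170), a call lost without untreated control 1 or 3 or Ha-ras tumour 1 or 2 (adjusted p 0.0557 to 0.0784). Over all alternatives the Lrp1 call was lost in 8 of 31. Its other probe set read -0.54 (adjusted p = 0.512) in the fit over all probe sets.

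Of 31 listed transcription factors known to act on apolipoprotein genes 28 were measured. Hnf4a, the activator of many of them in liver and named for that role, differed by 0.09 ± 0.15 in Ha-ras and 0.06 ± 0.13 in Ctnnb1 tumours and was not called. In Ha-ras tumours 2 rose, with a median over the list of -0.17: Foxa3 by 1.07 ± 0.21 (adjusted p = 0.00222, limma) and Rora by 0.87 ± 0.21 (adjusted p = 0.00967), both regulators of liver metabolism. Another 2 fell: Nr1i3, the receptor CAR that phenobarbital activates, at -2.46 ± 0.29 (adjusted p = 3.58e-05), and Nr1h4, the bile acid receptor FXR, at -0.87 ± 0.17 (adjusted p = 0.00208). In Ctnnb1 tumours, with a median of -0.27, Pparg, a driver of lipid storage, rose by 1.49 ± 0.30 (adjusted p = 0.00467). The coactivator Ppargc1b fell by 1.80 ± 0.33 (adjusted p = 0.00289) and Cebpa, a factor of the differentiated hepatocyte, at -0.92 ± 0.13 (adjusted p = 0.000529). The interaction passed for Nr1i3 (3.16), Foxa3 (-1.07) and Cebpa (-0.76). Further Rora probe sets disagreed in the fit over all probe sets. In Ha-ras tumours they ran from -0.42 (adjusted p = 0.120, limma) to 1.05 (adjusted p = 0.00396). Their interaction ran from -1.38 (adjusted p = 0.00682) to 0.57 (adjusted p = 0.165).

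**Figure D5:**
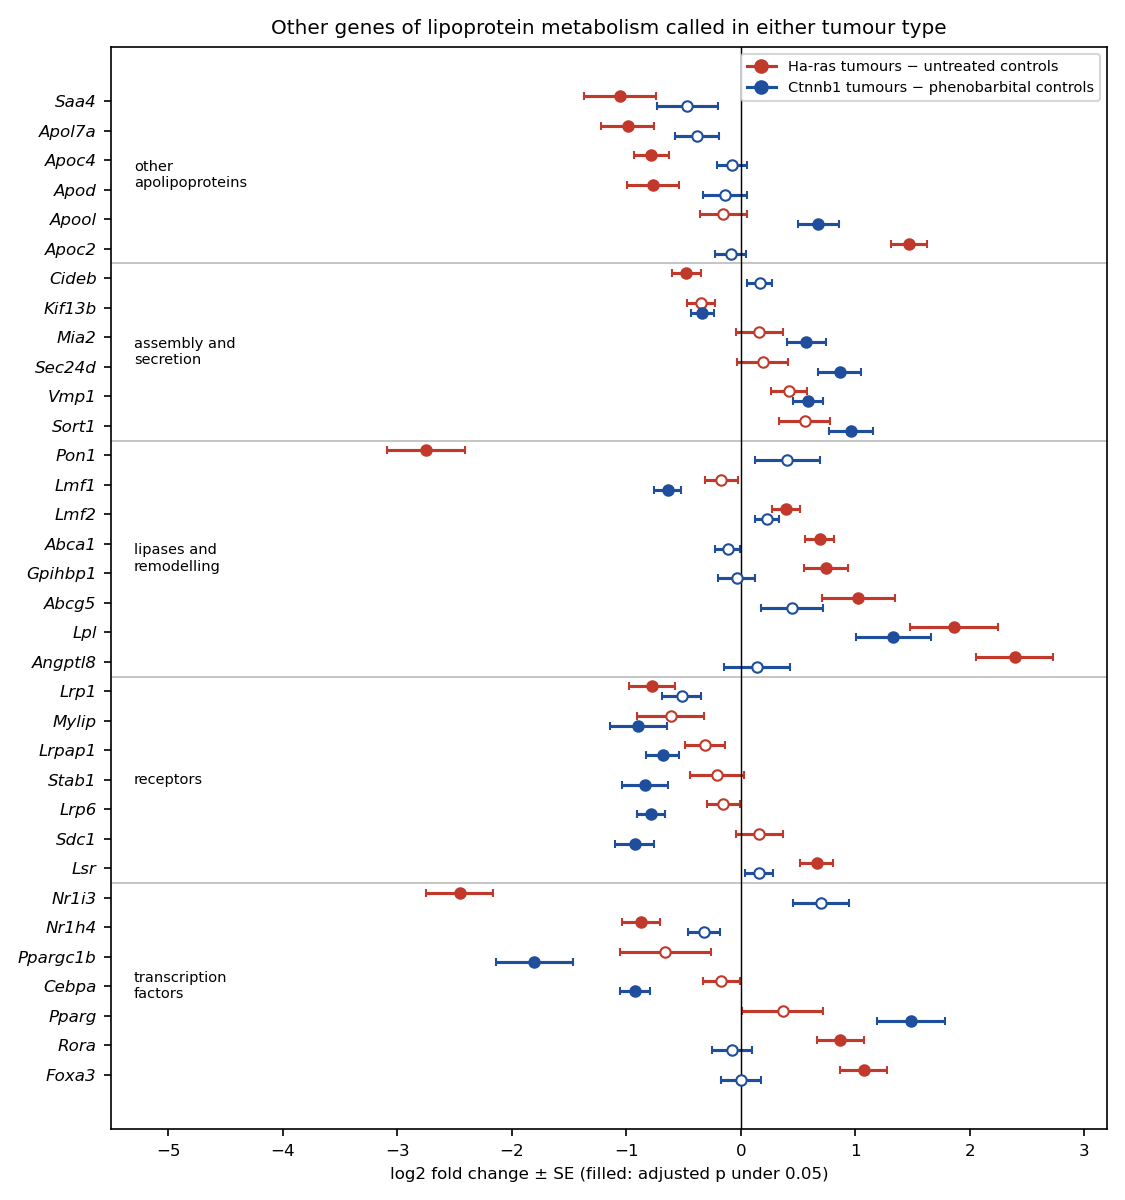
Log2 fold change ± SE (x axis) of each listed partner gene called in Ctnnb1 or Ha-ras tumours (y axis), for Ha-ras tumours against untreated controls and Ctnnb1 tumours against phenobarbital (PB) controls; filled points passed an adjusted p under 0.05. Lpl is filled for both (1.86 and 1.33), and Apoc2, Angptl8, Pon1 and Nr1i3 lie far from 0 for Ha-ras tumours with open points for Ctnnb1 tumours.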

How the data were processed

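The deposited log2 values, 1 for each probe set and array, come from Affymetrix GeneChips, made with RMA in R 2.14.1, per the submitters' processing notes. Scanner files, detection calls and scan dates were not used here. Symbols came from the platform annotation, and 34741 of the 34945 probe sets with 1 symbol were matched to RefSeq by Entrez ID. Of 45101 probe sets, 64 controls, 932 with several symbols and 9160 with none were left out. Where a gene had several, the one brightest on average was kept.

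Tests used limma 3.58.1 (lmFit on the 16 arrays, a coefficient for each of the 4 groups, then eBayes) in R 4.3.3 with statmod 1.5.0 and the package data.table (version 1.17.8), with Benjamini-Hochberg adjustment over all genes, and a second fit over all probe sets with 1 symbol. "Rose" and "fell" mean an adjusted p under 0.05. The 5 comparisons were each tumour type against its controls, the interaction, the control groups, and the tumour types. The script was tested on simulated data. The members, lists and tests were chosen with earlier results of these data known. All members are named. Of each list and comparison at most 4 called genes with the largest change and 2 against the majority are named, besides those said to be picked by role or position and those that the closing section takes up. The number of arrays limits the precision. Alternatives covered the probe set per gene, scaling, dim genes, eBayes settings, array weights, thresholds, replicate blocks, the groups fitted and each array left out. Figures were drawn with matplotlib 3.10.9.

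Further marker lists were counted in Ctnnb1 and Ha-ras tumours: 2 and 0 fell of 8 for hepatocytes, 4 and 3 of 8 for stellate cells, 0 and 0 of 8 for endothelium, 1 and 0 of 5 for cholangiocytes, 0 and 0 of 6 for lymphocytes and 0 and 1 of 4 for erythroid cells, and 0 rose. Of all genes 5.97% and 6.33% fell in these tumour types.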

Additional observations from a re-analysis of the deposited data

Results flagged for a closer look

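The interaction, the Ctnnb1 change minus the Ha-ras change, passed for 1 member and 9 partner genes (limma). Mutation and phenobarbital change together between the tumour types, so the interaction cannot be assigned to 1 of them. It was -2.00 for Apom, -1.56 for Apoc2 and -2.25 for Angptl8. It was 3.16 for Nr1i3 and also 3.16 for Pon1. These 5 passed in every alternative tried for the interaction. Abca1, the exporter that loads Apoa1 with cholesterol, gave -0.80, a call lost in 5 of 30 alternatives (highest adjusted p = 0.436). With the mean of its probe sets the adjusted p was 0.0800. In the fit over all probe sets its others gave -0.66 and -1.12 (adjusted p 0.449 and 0.102). Cebpa gave -0.76, a call lost in 20 of 30 alternatives (highest adjusted p = 0.130). Among single arrays that was so without Ctnnb1 tumour 1, 2, 4, 6 or 7, phenobarbital control 4 or 6, any untreated control, or Ha-ras tumour 1 or 3. Cideb gave 0.64, a call lost in 11 of 30 alternatives (highest adjusted p = 0.106). Single arrays whose omission lost it were Ctnnb1 tumour 4, phenobarbital control 6, any untreated control and Ha-ras tumour 1 or 2. Adjusted p then ran from 0.0516 to 0.0950. Foxa3 gave -1.07, a call lost in 9 of 30 alternatives (highest adjusted p = 0.209), with changes from -1.22 to -0.70 over the alternatives. Single arrays whose omission lost it were phenobarbital control 6, untreated control 1 or 2 and Ha-ras tumour 1 or 2. Adjusted p then ran from 0.0506 to 0.0853. Sdc1 gave -1.09, a call lost in 8 of 30 alternatives (highest adjusted p = 0.0916). Among single arrays that was so without phenobarbital control 6, untreated control 3 or Ha-ras tumour 1 or 2 (adjusted p 0.0575 to 0.0753). In the fit over all probe sets the other Sdc1 probe sets gave -1.22, -0.90 and -0.23 (adjusted p 0.0182, 0.0954 and 0.859).

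In 3 partner genes 1 Ctnnb1 tumour lay apart from the other 6 by its gap to the nearest. Gpr146, a receptor with a part in cholesterol balance, was 9.30 in tumour 3, with the nearest tumour at 8.71. The HDL receptor Scarb1 was 9.67 in tumour 7, with the nearest at 10.74. Sec24a, a COPII cargo adaptor, was 11.23 in tumour 7, with the nearest at 10.94. Of genes and probe sets 61 were examined this way, no member was among the 3, and chance marks about 1 group in 20.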

How the results depend on the processing

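No called member changed sign in any alternative run, and Apom and Apoa4 in Ha-ras tumours, and Apom in the interaction and between the tumour types, passed in each. The 2 members called in Ctnnb1 tumours against controls became 1 with a 2-fold minimum, 1 with the fixed replicate block, 1 when phenobarbital control 6, with Ctnnb1 tumours 6 and 7, was omitted, and 0 with the Gapdh gap as a covariate. The last pair of settings was chosen after seeing the data. With Apoa4 added they became 3 with dim genes left out, with median centring, with probe sets averaged per gene, or with the most variable one taken. The 3 called in Ha-ras tumours became 4 with the mean of all probe sets or array weights, each with Apoa1 added, and 2 at an adjusted p under 0.01 or with a 2-fold minimum, each without Lcat. The 1 called in the interaction became 3 with array weights, 2 with the fixed replicate block and 2 with the 3 arrays left out. The 1 called between the tumour types became 2 with the mean of all probe sets, 4 without dim genes, 2 with quantile normalization, 2 with median centring, 2 with trend and robust eBayes, 4 with array weights, 3 with the 3 arrays left out and 3 with the covariate. Apart from the fewer genes or arrays in some of these, the cause was not tested. With each array left out in turn the counts ran from 2 to 3 in Ctnnb1 tumours, 2 to 4 in Ha-ras tumours, 1 to 3 in the interaction, 0 to 0 between controls and 1 to 3 between the tumour types. Same-numbered samples share only a number, with correlations of their deviations of 0.13, 0.09 and -0.12 under phenobarbital and 0.03, 0.40 and 0.24 without it. The fixed replicate block could be fitted for 3 comparisons. Of the Ctnnb1 tumours it uses only 4, 5 and 6, since the rest have no control of the same number. Under this block Apoc3 in Ctnnb1 tumours read -0.42 (adjusted p = 0.0965, limma) and the Apoa4 interaction -1.15 (adjusted p = 0.0287). Calls over all genes in Ctnnb1 tumours went from 2192 to 804. A random replicate block left each count of members as it was. The fit of the compared groups alone was not run for the interaction, which needs all 4. Calls over all genes moved by over 1.5 times with array weights (Ha-ras 2462 to 3775, interaction 988 to 1547, controls 39 to 242), with the compared groups alone (controls 39 to 19), with the covariate (Ctnnb1 2192 to 836, controls 39 to 4), and with the 3 arrays left out (Ctnnb1 2192 to 1383, controls 39 to 21). With every probe set they were 3532 in Ctnnb1 tumours, 63 between controls and 4252 between the tumour types. At an adjusted p under 0.01 they were 850, 1318, 419, 2 and 1567 in the order of comparisons above, and with a 2-fold minimum 596 in Ctnnb1 tumours, 1086 in Ha-ras tumours and 898 between the tumour types. Quantile normalization moved members by at most 0.15. Signal over background was not used here, and levels near the array maximum may be compressed.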
